A study of Sus scrofa with 2 samples.

Results

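The genes described here encode the enzymes that make cholesterol and fatty acids, together with the proteins that control those enzymes. They were chosen by name from 29 planned symbols, and 27 of the 29 were listed among the 22342 genes of the deposited matrices. The 27 members were sorted by role into a mevalonate arm (HMGCS1, MVK, PMVK, MVD, FDPS and ACAT2), a sterol arm of 11 enzymes from FDFT1 to DHCR7, 5 regulators (INSIG1, SREBF1, SREBF2, SCAP and STARD4) and a fatty acid arm of 5 enzymes (SCD, FASN, ACACA, ACLY and ELOVL6). IDI1 and INSIG2 were not listed by symbol. They were found by their Ensembl identifiers in a gene name table and are given apart from the sums.

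Somatic cells were flushed from 2 antral follicles, AF75 and AF76, each over 7 mm in diameter. Both follicles came from the ovaries of a single Landrace × Yorkshire pubertal pig aged 210 days, which was raised in natural surroundings and had been injected with pregnant mare serum gonadotropin to stimulate follicle growth. Both were washed, punctured and, for the cumulus complexes, treated with hyaluronidase in the same way. Each follicle gave 1 library of 3′ single-cell RNA sequencing, so the follicles are not replicates of any condition and no test between them was possible. All intervals below are 95% intervals that cover counting error only, and a 1.5-fold difference was used in place of a test.

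After the study's limits on genes and mitochondrial reads, 9362 cells of AF75 and 7843 cells of AF76 remained, with 111226504 and 108920601 unique molecular identifiers (UMIs, counted RNA molecules) in all and a median of 11254.5 and 13902 per cell. Levels are given as CPM, the UMIs of a gene scaled to a library size of 1000000 UMIs. The reads came from 3′ ends and were not divided by gene length, so the order of levels between genes also depends on how well each 3′ end is annotated. The granulosa markers listed (FSHR, INHA, INHBA and AMH) summed to 21892 CPM in AF75 and 23701 in AF76. INHA alone held 19854 and 23176 CPM of this, while FSHR was at 1.80 and 2.16 CPM, and AMH had no UMI in AF75 and 0.0092 CPM in AF76. The 6 theca or stromal markers summed to 2.11 and 8.82 CPM, the 8 immune markers to 13.4 and 20.8 CPM, the 3 endothelial markers to 4.35 and 7.39 CPM, and HBB, a red blood cell marker, stood at 2.47 and 45.6 CPM. The libraries shared 18 cell barcodes among the cells kept, and leaving these out kept the log2 ratio of the members' summed level (AF76 to AF75) at -0.15.

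Cells build cholesterol from acetyl-CoA through mevalonate, farnesyl units, squalene and lanosterol, and granulosa cells use cholesterol for membranes and as the starting material of steroid hormones. When sterols in the endoplasmic reticulum run low, SCAP carries the SREBP transcription factors (encoded by SREBF1 and SREBF2) to the Golgi, where proteases release their active part. INSIG proteins hold SCAP back when sterols are plentiful, and INSIG1 is itself a target of SREBP.

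SREBP binds sterol regulatory elements, often beside CCAAT boxes bound by NF-Y, and the upstream sequence of 3 members is shown because they carry the matches that are discussed next. The sequences were read from the RefSeq annotation of Sscrofa11.1, on the minus strand of the genome and in the direction of the gene, and end just before the annotated gene. HMGCS1 is shown at chr16:27957262-27957446, SREBF2 at chr5:6784725-6784974 and INSIG1 at chr18:2898759-2899008. Capitals mark TCACNCCAC, a form of the sterol regulatory element, CACGTG, an E-box, and CCAAT, which reads ATTGG on the other strand.
HMGCS1: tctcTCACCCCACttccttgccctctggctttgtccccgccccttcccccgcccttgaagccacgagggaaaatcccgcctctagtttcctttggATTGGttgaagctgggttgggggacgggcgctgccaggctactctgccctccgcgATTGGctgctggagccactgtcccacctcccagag
SREBF2: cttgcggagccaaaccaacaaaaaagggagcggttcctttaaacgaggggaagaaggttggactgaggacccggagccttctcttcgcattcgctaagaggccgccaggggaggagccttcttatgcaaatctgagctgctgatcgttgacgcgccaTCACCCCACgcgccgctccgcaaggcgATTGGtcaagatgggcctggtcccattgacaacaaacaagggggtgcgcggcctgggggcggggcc
INSIG1: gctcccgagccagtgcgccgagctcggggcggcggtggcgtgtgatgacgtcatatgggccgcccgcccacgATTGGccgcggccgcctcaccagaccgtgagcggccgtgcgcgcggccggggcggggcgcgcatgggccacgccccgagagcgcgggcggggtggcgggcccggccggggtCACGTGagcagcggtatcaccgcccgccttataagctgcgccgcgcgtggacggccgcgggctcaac

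The same motifs were counted on both strands of a window in each of 25 members and 19531 protein-coding genes. The window ran from 250 bases before to 50 after a transcript start, a curated one where RefSeq had it. This start can lie inside the annotated gene, and for ACACA, EBP, FDPS, MSMO1, NSDHL, SCAP and SQLE the whole window does. How often this holds among all genes was not counted. CCAAT was found in 17 of the 25 members (68%) and in 35.0% of all genes. GGGCGG, the core of an Sp1 site, was found in 17 members (68%) and 50.9% of all genes, and CACGTG in 3 members (12%, ACLY, INSIG1 and SC5D) and 7.78% of all genes. TCACNCCAC was found in 2 members, HMGCS1 at position -246 and SREBF2 at position -93, and in 0.896% of all genes. Positions are counted from the transcript start. For HMGCS1 this start (27957196) lies inside the annotated gene (which ends at 27957261), so -246 is not the distance to the end of the stretch shown. The element of SREBF2 lies close to a CCAAT box, as the capitals show. These are letter matches in a fixed window, and no binding was measured.

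The members together took 3201 CPM (3190 to 3211) of the UMIs of AF75 and 2881 CPM (2871 to 2891) of those of AF76. The sterol arm held most of this, at 1945 CPM in AF75 and 1782 in AF76, ahead of the mevalonate arm at 666 and 593 CPM. The regulators summed to 324 and 288 CPM and the fatty acid arm to 266 and 218 CPM. The plot of member levels shows that single genes covered a range of about the same width in both follicles.

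**Figure D1:**
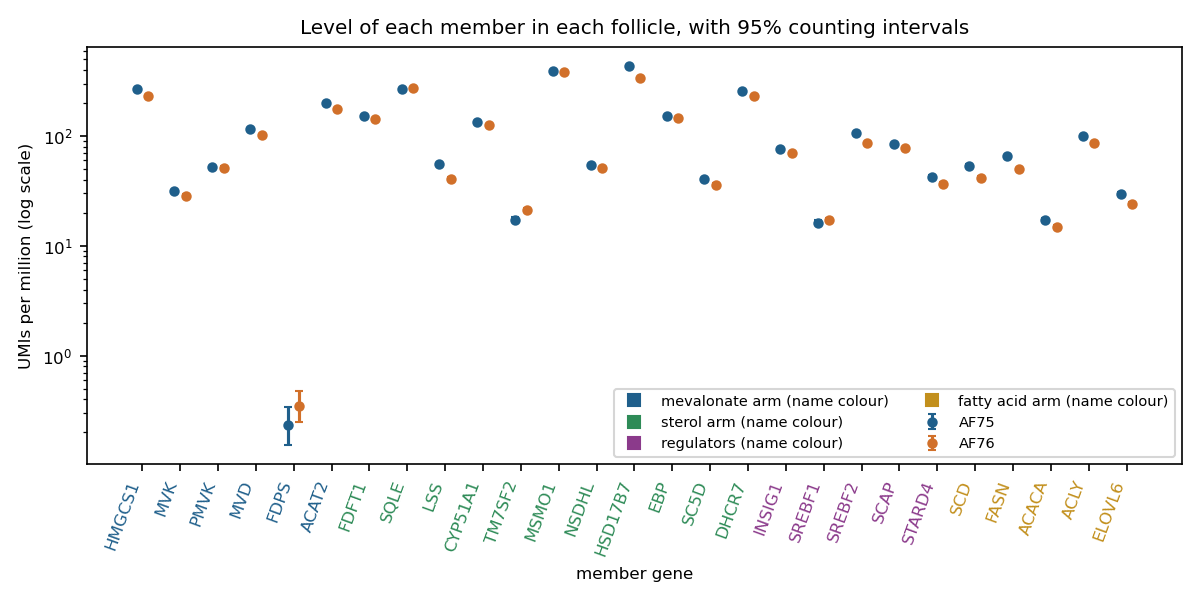
CPM (log scale) of each of the 27 members over all cells kept, in AF75 (blue points) and AF76 (orange points), with 95% counting intervals that are mostly smaller than the points; name colours give the arm. MSMO1 and HSD17B7 lie highest, FDPS lies far below the others at 0.234 and 0.349 CPM, and the points of the follicles lie close together for every other member.

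HSD17B7, a reductase of the sterol ring, was at 430.2 CPM in AF75 and 335 in AF76. MSMO1, an oxidase that helps to strip methyl groups from lanosterol, was at 387 and 380.3 CPM. Both follicles had these as their top members, with the order of the pair exchanged. SQLE, the epoxidase that adds oxygen to squalene, was at 269.5 and 272 CPM, and FDFT1, which makes squalene, was at 153 and 143 CPM. The last steps were also well covered, with DHCR7 at 254 and 231 CPM and EBP at 151 and 146 CPM. In the mevalonate arm HMGCS1, the synthase that makes HMG-CoA, was at 267 and 234 CPM, and ACAT2, which joins acetyl-CoA units, was at 199 and 176 CPM.

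FDPS, which makes farnesyl pyrophosphate, had only 26 UMIs in AF75 and 38 in AF76. The adjacent gene on the same strand, RUSC1, begins 146 bases past the annotated end of FDPS in RefSeq (chr4:94489202-94499993 for RUSC1 and chr4:94500140-94514820 for FDPS). RUSC1 stood at 86.0 CPM in AF75 and 82.9 in AF76. Whether 3′ reads of FDPS were assigned to RUSC1 was not tested, and FDPS was under the minimum of 200 UMIs for the counts of members below, which leaves 26 members. IDI1, the isomerase before FDPS in the pathway, was at 452 and 416 CPM by identifier, above every member listed by symbol. INSIG2 was at 99.9 and 99.5 CPM.

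Between the follicles the summed level differed by a ratio of 0.900 (0.896 to 0.904, AF76 to AF75). The ratio was 0.890 for the mevalonate arm, 0.916 for the sterol arm, 0.888 for the regulators and 0.820 for the fatty acid arm. None of the 26 members was 1.5-fold or more apart, where 1.80% of 10049 genes were higher in AF76 by this measure and 3.85% lower. With 1 library a follicle no count at an unadjusted p exists. Only 3 of the 26 members (TM7SF2, SREBF1 and SQLE) had a higher level in AF76, and the intervals of the last pair include 1. The median log2 ratio was -0.16 over the members and -0.0019 over all genes tested.

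LSS, which closes the sterol rings, differed most, at 55.7 CPM in AF75 and 41.0 in AF76, a ratio of 0.736 (0.708 to 0.765). The fatty acid synthase FASN was at 65.3 and 50.1 CPM (ratio 0.766, 0.740 to 0.794), and the desaturase SCD was at 53.7 and 41.8 CPM (0.779, 0.749 to 0.810). TM7SF2, a sterol reductase, went the other way, from 17.3 to 21.4 CPM (1.23, 1.16 to 1.31). These intervals do not include 1, but they hold no spread between animals or follicles.

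Within each follicle the cells differed far more than the follicles did. The summed level of the members had a median of 2516 CPM per cell in AF75, and its 5th to 95th percentile ran from 804 to 7607 CPM. In AF76 the median was 1963 CPM and these percentiles were 534 and 7389 CPM. To compare cells at 1 depth, each cell was thinned to 5000 UMIs. The 19 shallower cells of AF75 and the 105 of AF76 were dropped. Thinned cells held a median of 13 member UMIs in AF75 and 10 in AF76, with a highest count of 86 and 90. At this depth 18 cells of AF75 and 60 cells of AF76 held no member UMI.

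The coefficient of variation (CV) of this count was 0.726 in AF75 and 0.845 in AF76, where counting alone would give 0.250 and 0.268. The excess CV, the part left after counting error is taken off, was 0.68 and 0.80. Within the largest cluster of cells alone it was 0.66 and 0.77. Single members had their own spread. INSIG1, the sterol-sensing brake, had an excess CV of 1.59 in AF75 and 1.99 in AF76, and STARD4, a carrier of cholesterol between membranes, had 1.41 and 1.72. SREBF2 (0.45 and 0.52) and SCAP (0.39 and 0.48) were near or below the median over all genes tested, 0.50 and 0.53.

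**Figure D2:**
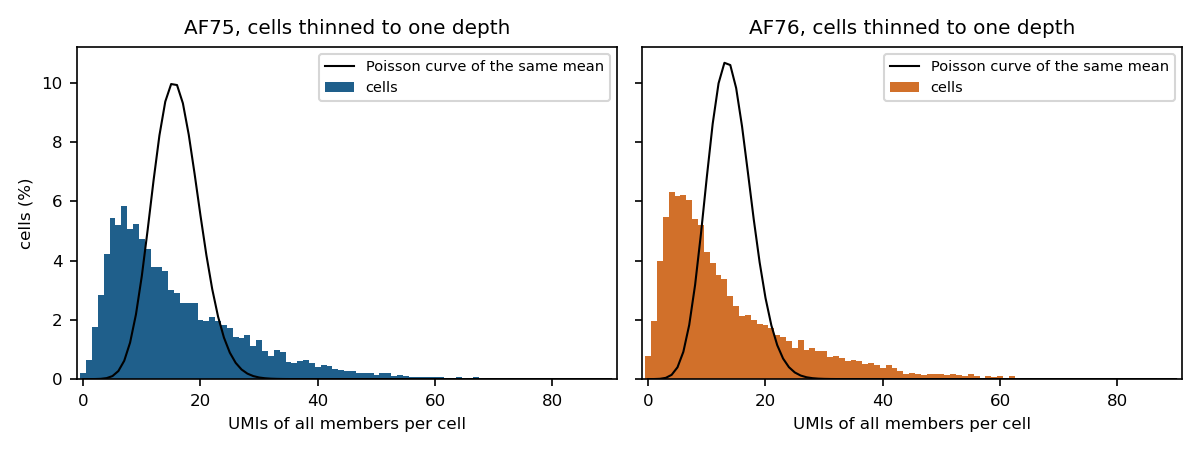
Percent of cells (y axis) against the summed UMIs of the 27 members per cell after thinning to 5000 UMIs (x axis), for AF75 (blue bars) and AF76 (orange bars); the black line is a Poisson curve with the same mean, 15.9 and 13.9 UMIs. In both follicles the bars reach well past the curve on either side, with a long tail to 86 and 90 UMIs and no gap between low and high cells.

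To ask which members vary together, the thinned cells of each follicle were ordered by the summed UMIs of all other members and divided into 5 parts of equal size, and each member was compared between the part with the highest sum and the part with the lowest. A member never ordered its own cells. The parts are ranges of one continuous count, not cell types. In AF75 486 cells and in AF76 478 cells had the count at the border of the lowest part, and 170 and 116 cells the count at the border of the highest part.

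In AF75 22 of the 26 members were 1.5-fold or more higher in high-sum than in low-sum cells, where 3.20% of 8747 genes were. In AF76 this held for 23 of 26 members and for 2.90% of 8483 genes. The median log2 ratio over the members was 2.07 in AF75 and 2.57 in AF76, beside 0.03 and -0.11 over all genes tested. The mevalonate arm was complete, with all 5 members counted past the fold in both follicles, and in the sterol arm 10 of 11 were past it in AF75 and 11 of 11 in AF76. Of the regulators 3 of 5 and of the fatty acid arm 4 of 5 were past it in each follicle.

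INSIG1 covered the widest range. It went from 10.4 CPM in low-sum cells to 217 CPM in high-sum cells of AF75, a ratio of 20.9 (17.1 to 25.9), and from 5.68 to 215 CPM in AF76, a ratio of 37.8 (27.99 to 52.2). STARD4 went from 8.99 to 114 CPM in AF75 (ratio 12.7, 10.2 to 16.1) and from 6.72 to 111 CPM in AF76 (16.5, 12.4 to 22.2). Both moved in the direction of the enzymes. The genes of the transcription factors and of SCAP were flatter. SREBF2 went from 60.0 to 157 CPM in AF75 (2.62, 2.37 to 2.89) and from 43.2 to 130 CPM in AF76 (3.005, 2.65 to 3.41).

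SREBF1 was at 16.2 CPM in low-sum and 15.2 CPM in high-sum cells of AF75 (0.941, 0.743 to 1.19), and at 14.3 and 18.1 CPM in AF76 (1.26, 0.977 to 1.63). SCAP was at 78.2 and 93.6 CPM in AF75 (1.20, 1.08 to 1.32) and at 71.1 and 75.6 CPM in AF76 (1.06, 0.946 to 1.20). Neither gene reached 1.5-fold in either follicle. The intervals of SREBF1 include 1 in both follicles and run up to 1.63 in AF76, so for this low gene a difference of that size is not excluded by its counts.

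Among the enzymes HMGCS1 was higher in each part than in the one before, at 59.9, 87.0, 159, 303 and 714 CPM over the 5 parts of AF75 and at 51.7, 65.4, 101, 245 and 657 CPM over those of AF76. The ratios of the last to the first were 11.9 (10.9 to 13.0) and 12.7 (11.5 to 14.1). SQLE gave 11.2 (10.2 to 12.2) in AF75 and 17.6 (15.7 to 19.9) in AF76. CYP51A1, the lanosterol demethylase, gave 10.5 (9.27 to 11.9) and 11.5 (9.98 to 13.3). The mevalonate decarboxylase MVD gave 9.78 and 12.4, ACAT2 8.85 and 14.0, MSMO1 8.88 and 10.8, and FDFT1 6.75 and 8.48. DHCR7, the last enzyme of the Kandutsch-Russell route, moved less, from 162 to 368 CPM in AF75 (2.28, 2.14 to 2.42) and from 132 to 346 CPM in AF76 (2.62, 2.44 to 2.82). PMVK, the phosphomevalonate kinase, gave 2.12 and 2.34.

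The fatty acid arm was split. SCD went from 11.2 to 141 CPM in AF75 (12.6, 10.3 to 15.5) and from 5.81 to 112 CPM in AF76 (19.2, 14.2 to 26.5), and the elongase ELOVL6 gave ratios of 8.21 and 10.6. FASN gave 2.45 and 2.92, and ACLY, which supplies acetyl-CoA from citrate, 1.87 and 2.16. ACACA, the carboxylase that commits acetyl-CoA to fatty acids, was at 17.7 and 21.0 CPM in AF75 (1.19, 0.961 to 1.47) and at 15.8 and 16.5 CPM in AF76 (1.05, 0.813 to 1.36). SCD and ELOVL6, which modify finished chains, covered a wider range between cells than the genes that make malonyl-CoA and palmitate.

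**Figure D3:**
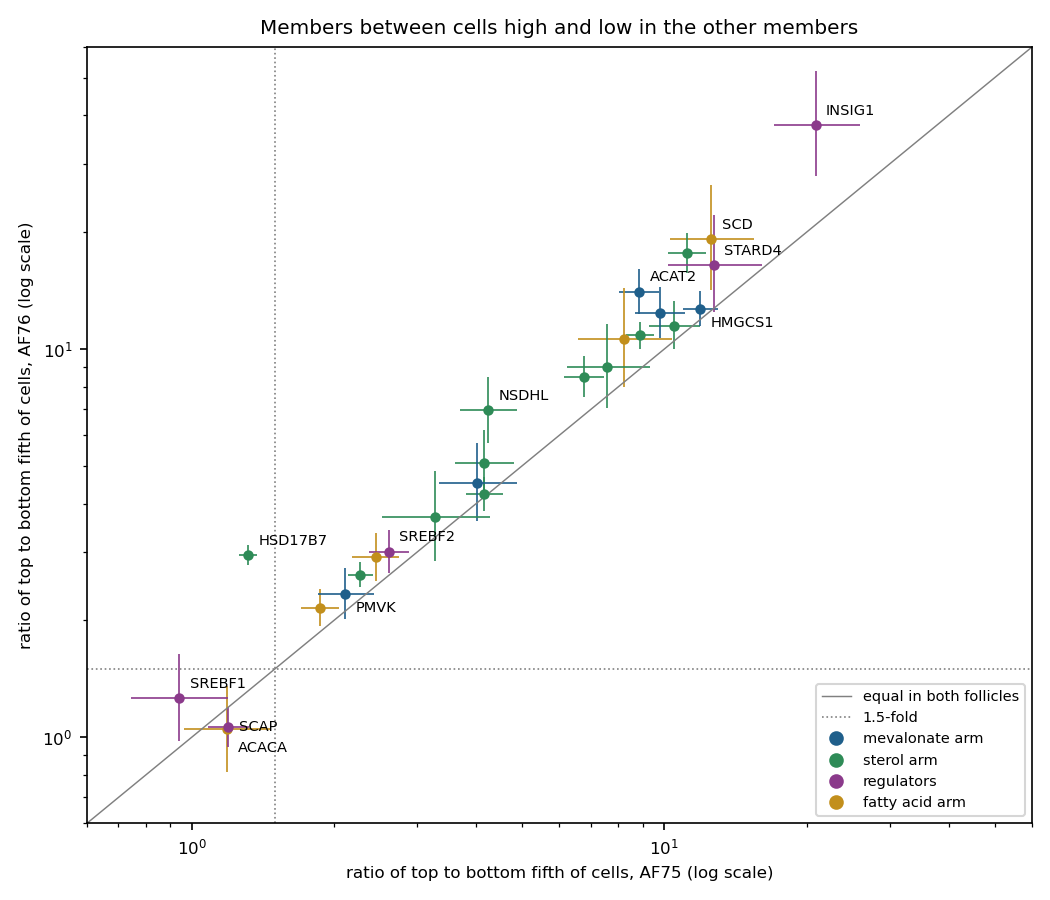
Ratio of each member's level in high-sum to low-sum cells, AF75 on the x axis and AF76 on the y axis (both log scales), with 95% counting intervals; colours give the arm, the solid line marks equal ratios and dotted lines mark 1.5-fold. INSIG1 lies at the upper right at 20.9 and 37.8, SREBF1, SCAP and ACACA lie near 1 in both follicles, and HSD17B7 stands left of the line at 1.32 and 2.94.

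HSD17B7 was the member whose ratio differed most between the follicles. In AF75 it was at 416 CPM in low-sum and 547 CPM in high-sum cells (1.32, 1.26 to 1.37), and in AF76 at 185 and 544 CPM (2.94, 2.77 to 3.13). Its correlation with the sum of the other members was 0.12 in AF75 and 0.30 in AF76. Within the largest cluster the correlations came to 0.20 and 0.21. Cells were also clustered by their other genes, as described further on. Low-sum cells of AF75 were 19.5% cluster 2, where HSD17B7 was 1.44-fold (1.39 to 1.48) its level in cluster 0, and low-sum cells of AF76 were 28.5% cluster 3, where it was 0.137-fold (0.119 to 0.157).

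The make-up of the parts differed in other ways. Cluster 2 was 3.69% of the high-sum cells of AF75, cluster 3 was 0.323% of those of AF76, and cluster 1 was 40.5% of the high-sum cells of AF76 but 3.17% of its low-sum cells. Median depth before thinning went from 10766 UMIs in low-sum to 11413.5 UMIs in high-sum cells of AF75, and from 12202.5 to 14734 UMIs in AF76. The 5 cumulus markers summed to 5238 CPM in low-sum and 2143 CPM in high-sum cells of AF75, and to 647 and 945 CPM in those of AF76. In AF76 the 3 with enough UMIs were unlike each other. VCAN went from 387 to 712 CPM, TNFAIP6 from 220 to 222 CPM and APOD from 37.6 to 3.88 CPM. The 6 mural markers summed to 7274 and 6748 CPM in AF75 and to 10008 and 8080.3 CPM in AF76. In the cells of cluster 0 alone, 24 of 26 members in AF75 and 23 of 26 in AF76 passed 1.5-fold. The share of all genes past 1.5-fold was not counted within cluster 0. The part of depth and of the other clusters in the ratios over all cells was otherwise not tested.

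Across single cells each member was also compared with the sum of the others by Pearson's r of log2(1 + UMIs), over 9343 thinned cells of AF75 and 7738 of AF76. Cells of 1 follicle share a library, so the values are descriptions with no p, and low counts hold r down. MSMO1 (0.62 and 0.64), SQLE (0.60 and 0.64), HMGCS1 (0.59 in both) and ACAT2 (0.54 and 0.57) were highest. Over 5255 other genes at 20 CPM or more, the median r was 0.0030 in AF75 and -0.0062 in AF76, and the 95th percentile was 0.052 and 0.068. SREBF1 (-0.00012 and 0.016), SCAP (0.042 and 0.016) and ACACA (0.029 and 0.0046) were inside that range. In the cells of cluster 0 alone MSMO1 was at 0.63 and 0.60 and SQLE at 0.60 in both. There the 95th percentile of the other genes was 0.039 in both follicles. ACACA was above it in AF75 (0.059) but not in AF76 (0.0027). SREBF1 (0.0015 and -0.00027) and SCAP (0.0070 and 0.0075) were below it in both.

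The arms went together unequally. The sums of the mevalonate and sterol arms had an r of 0.62 in AF75 and 0.64 in AF76, the mevalonate arm and the fatty acid arm 0.37 and 0.40, and the regulators and the fatty acid arm 0.23 and 0.24. Among pairs of single members SQLE with MSMO1 had the highest r, 0.54 and 0.58, and the median over 351 pairs was 0.086 and 0.11. The summed level had an r of 0.066 in AF75 and 0.25 in AF76 with the logarithm of UMIs per cell before thinning, and 0.063 and 0.073 within cluster 0.

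**Figure D4:**
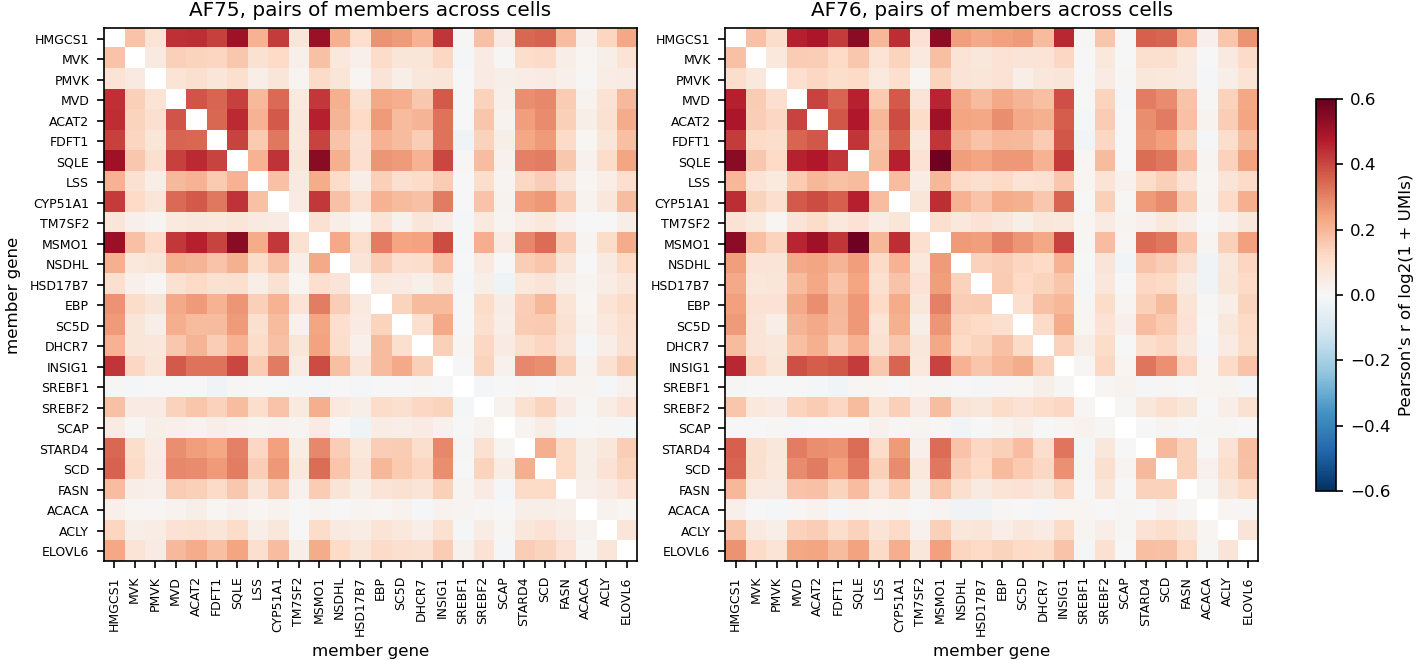
Pearson's r of log2(1 + UMIs) for each pair of 26 members (both axes list the genes in the same order) over thinned cells of AF75 (left) and AF76 (right); red is positive and the diagonal is left blank. HMGCS1, MVD, ACAT2, FDFT1, SQLE, CYP51A1, MSMO1 and INSIG1 form the darkest rows in both follicles, up to 0.58 for SQLE with MSMO1 in AF76, and the rows of SREBF1, SCAP and ACACA are close to white.

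The planned members that were missing by symbol were unlike each other. IDI1 followed the members, from 100.5 to 1049 CPM between low-sum and high-sum cells of AF75 (ratio 10.4) and from 68.1 to 1024 CPM in AF76 (15.04), with an r of 0.64 and 0.67, above any member listed by symbol. INSIG2 did not, with ratios of 0.99 and 0.90 beside the 20.9 and 37.8 of INSIG1. RUSC1, the gene next to FDPS, went from 34.0 to 156 CPM in AF75 (4.57) and from 26.7 to 160 CPM in AF76 (5.98).

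Other genes of the pathway gave a similar picture. Of 25 planned, 24 were listed and 20 had enough UMIs, and 12 of these in AF75 and 11 in AF76 were 1.5-fold or more higher in high-sum cells, while 1 in AF76 (MID1IP1) was lower, as were 10.9% of all genes tested there. FABP3, a fatty acid carrier, gave ratios of 7.70 and 3.81, MMAB 3.26 and 5.09, and the fatty acid desaturases FADS1 and FADS2 gave 2.91 and 2.75, and 2.21 and 2.07. LPIN1, a phosphatidate phosphatase, gave 17.4 (9.24 to 36.9) in AF75 and 2.07 in AF76 from levels of 6.04 and 6.60 CPM. GGPS1, which leads from farnesyl units away from sterols, gave 0.899 and 1.04.

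Genes of the machinery that controls the pathway were counted in the same way. Of those with enough UMIs, none of 12 in AF75 and none of 11 in AF76 was 1.5-fold higher in high-sum cells. Only 3.20% and 2.90% of all genes tested were, so these counts do not set the genes apart. Only SP1, a factor that binds GC boxes, was 1.5-fold lower in AF75 (0.633, 0.435 to 0.914), where 3.09% of all genes tested were, and it stood at 0.844 (0.577 to 1.23) in AF76. The protease genes MBTPS1 (1.01 and 0.827) and MBTPS2 (1.06 and 0.781), which cut SREBP in the Golgi, were among those under 1.5-fold either way. So were the NF-Y subunit genes NFYA (0.889 and 0.903), NFYB (0.925 and 1.03) and NFYC (0.792 and 0.833). The high density lipoprotein receptor SCARB1, the most abundant gene of cholesterol uptake here at 1406 and 1462 CPM, gave 1.13 and 1.26, and SOAT1, which esterifies cholesterol, 0.970 and 0.865. Of 8 uptake and storage genes tested only NPC2, a carrier of cholesterol in lysosomes, passed 1.5-fold, at 1.70 in AF75 and 0.448 in AF76. Of all genes tested, 3.20% were 1.5-fold higher in AF75 and 10.9% lower in AF76. The r of NPC2 with the summed level in AF76 was -0.10 over all cells and 0.029 within cluster 0.

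In steroid synthesis 1 of 8 genes was past 1.5-fold upward in each follicle, beside 3.20% and 2.90% of all genes tested. It was STAR, which brings cholesterol to the inner mitochondrial membrane. STAR went from 30.3 to 159 CPM in AF75 (5.24, 4.61 to 5.98) and from 25.7 to 122 CPM in AF76 (4.76, 4.08 to 5.58), and its r with the summed level within cluster 0 was 0.24 and 0.19. The enzyme genes that come after it did not follow. CYP11A1, which makes pregnenolone, gave 0.918 (0.898 to 0.939) and 0.851 (0.830 to 0.872), and the aromatase gene CYP19A1 gave 0.733 and 0.637. In AF76 CYP19A1, FDXR (0.489) and NR5A1 (0.655) were 1.5-fold or more lower, which makes 3 of the 8 beside 10.9% of all genes. In AF75 none of the 8 was. The r of these 3 genes with the summed level was -0.037, -0.069 and -0.033 over all cells of AF76. Within cluster 0 of AF76 it was -0.020, 0.030 and 0.0047. The study used STAR among its theca markers, and the 6 theca or stromal markers listed here summed to 2.35 and 2.57 CPM in low-sum and high-sum cells of AF75 and to 38.5 and 4.52 CPM in those of AF76.

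Among all other genes the most like the summed level, by the smaller r of the follicles, also held DDT (0.23 and 0.27), the serotonin transporter gene SLC6A4 (0.22 and 0.35), the tubulin gene TUBA1B (0.21 and 0.32), DBI, which binds acyl-CoA (0.21 in both), and TKT, an enzyme of the pentose phosphate route (0.19 and 0.22). The least like were THBS1 (-0.20 and -0.19), INHBB (-0.17 and -0.14) and S1PR1 (-0.14 and -0.12), but within cluster 0 none of these was further from 0 than S1PR1 at 0.043 in AF75.

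Cells were clustered without the members, and their level was then read in each cluster. The 6 clusters are called by number. Cluster 0 was led by TGFB3, ENPP2 and IL33, cluster 1 by TMEM178A, HBB and APOA1, and cluster 2 by CALCRL and PTGS2. Cluster 3 was led by CCL26, CEMIP and CCDC80, cluster 4 by TOP2A and DIAPH3, and cluster 5 by SPP1 and CTSS. HBB led cluster 1 through AF76 only, at 116 CPM there. It stood at 1.95 CPM in cluster 1 of AF75 and at 2.83 CPM in cluster 0 of AF75. The summed level was lowest in cluster 3, which held 671 cells of AF76 and none of AF75, at 793 CPM (768 to 819), and highest in cluster 1 of AF76 at 4570.0 CPM (4540.0 to 4600.1). In the other clusters and follicles it lay between 2175 and 3388 CPM.

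**Figure D5:**
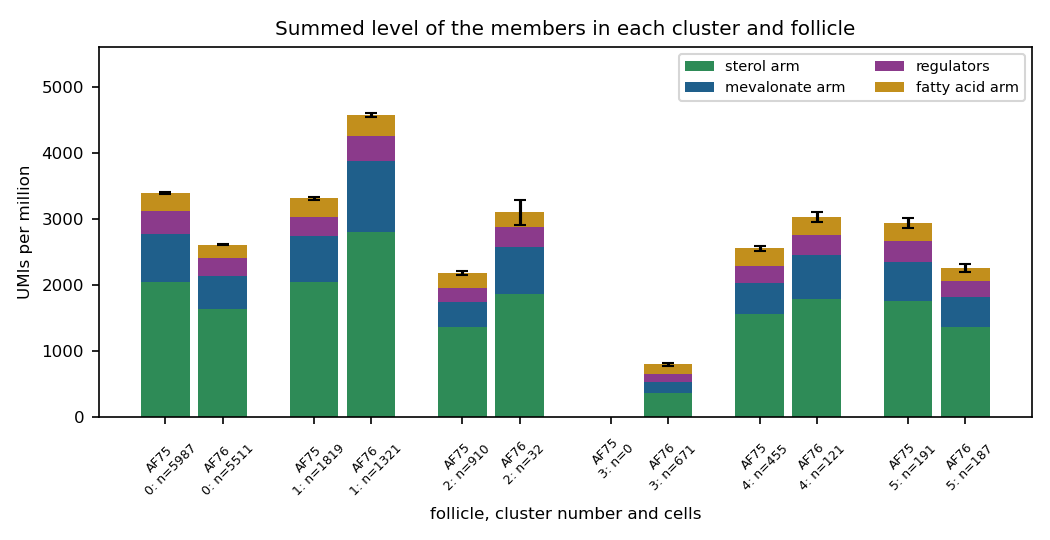
Summed level of the members in CPM (bar height, stacked by arm) in each cluster of AF75 and AF76, with 95% counting intervals of the sum and the number of cells under each bar. Cluster 3, with cells of AF76 only, is lowest at 793 CPM, and the order of clusters 0 and 1 is even in AF75 (3388 and 3311 CPM) but not in AF76 (2606 and 4570.0 CPM).

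In cluster 3 of AF76, the summed level was 0.304 (0.295 to 0.314) of that of cluster 0, and 21 of 26 members were 1.5-fold or more lower, where 15.2% of 9334 genes were. DHCR7 (0.150, 0.128 to 0.175), HSD17B7 and INSIG1 (0.171, 0.127 to 0.227) were lowest. The fatty acid genes stood apart, with FASN at 1.08 (0.941 to 1.23) and ACACA at 1.17 (0.920 to 1.47) and ACLY at 0.725 (0.641 to 0.816), although SCD was at 0.285 (0.210 to 0.378). The granulosa markers summed to 2815 CPM in cluster 3 and 24990 CPM in cluster 0 of AF76. The mural markers summed to 2722 and 11922 CPM, and the theca or stromal markers to 105 and 4.76 CPM. INHA held most of the granulosa sum over all cells, and single markers are not given by cluster. Between low-sum and high-sum cells of AF76, INHA went from 17992 to 23614 CPM and INHBA from 437 to 770 CPM. FSHR went the other way, from 12.9 to 0.517 CPM. The part of all these markers in the lower level of cluster 3 was not tested. The median depth of cluster 3 was 6418 UMIs against 14220 UMIs in cluster 0, and its 671 cells stayed together when the libraries were not integrated.

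In cluster 2 of AF75 (910 cells), the summed level was 0.642 (0.633 to 0.651) of that of cluster 0, and 18 of 26 members were 1.5-fold or more lower, where 26.9% of 9270 genes were. TM7SF2 (0.169) and EBP (0.383) were lowest. HSD17B7 and ACACA (1.44 for both), FASN (1.26, 1.16 to 1.36) and SREBF1 (1.19, 1.01 to 1.39) were higher than in cluster 0. The cumulus markers summed to 14741 CPM in these cells and to 852 CPM in cluster 0 of AF75. In cluster 4, with the dividing cell markers at 1182 CPM in AF75 and 1395 in AF76, the ratio to cluster 0 was 0.754 (0.742 to 0.765) in AF75 and 1.16 (1.13 to 1.19) in AF76.

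The comparison of cluster 1 with cluster 0 differed between the follicles. In AF75 the ratio was 0.977 (0.969 to 0.986) and 1 of 26 members, HSD17B7, was 1.5-fold or more higher, where 4.74% of 9248 genes were. In AF76 the ratio was 1.75 (1.74 to 1.77) and 17 of 26 members were, where 3.13% of 9307 genes were. ELOVL6 (2.44), HMGCS1 (2.36) and CYP51A1 (2.30) were highest in AF76, and SREBF1 (0.799, 0.701 to 0.908) and SCAP (0.846, 0.797 to 0.898) were lower in cluster 1 than in cluster 0. This result rests on the integration of the libraries. Without it 1245 of the 1321 AF76 cells of cluster 1 fell in with cluster 0, only 117 AF76 cells took the name of cluster 1, and the log2 ratio in AF76 was -0.088.

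Read by cluster, the follicles differed in both directions. In cluster 0 the summed level of AF76 was 0.769 (0.765 to 0.774) of that of AF75, and 3 of 26 members, SCD (0.619), LSS (0.639) and HMGCS1 (0.648), were 1.5-fold or more lower, where 1.43% of 9381 genes were. In cluster 1 the ratio was 1.38 (1.37 to 1.39), and 9 of 26 members were 1.5-fold or more higher, where 1.95% of 7323 genes were. SQLE (1.87, 1.81 to 1.93) and TM7SF2 (1.81, 1.57 to 2.09) were furthest apart. This contrast too rests on the integrated clusters. Without integration 1245 of the 1321 AF76 cells of cluster 1 fell in with cluster 0, and the follicles were not compared by cluster there. In cluster 4 the ratio of AF76 to AF75 was 1.18 (1.15 to 1.22). Cluster 1 held cumulus markers at 4922 CPM in AF75 and 1356 in AF76. These markers were also lower in AF76 in cluster 0 (852 and 465 CPM) and in cluster 4 (5341 and 656 CPM). Whether cluster 1 held the same mix of cells in the follicles was not tested.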

How the data were processed

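Somatic cells of 2 antral follicles of 1 pig were profiled with 10x Genomics 3′ chemistry (v3.1), 1 library each. The authors aligned and counted the reads with CellRanger 6.0.2, and deposited raw UMI counts per gene and barcode (14289 barcodes for AF75, 15548 for AF76) on the Sscrofa11.1 assembly. Barcodes with 2000 to 5000 genes and under 7% UMIs of the 13 mitochondrial genes were kept. Doublets were not removed, and an alternative left out the 6.9% of cells with the highest Scrublet score.

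Member counts were summed over cells and divided by all UMIs (CPM), with exact Poisson intervals for levels and exact conditional intervals for ratios, all at 95% and covering counting error only. Genes with at least 200 UMIs were counted, and counts under 3 were raised to 3 for such counts. For comparisons between cells, each cell was thinned to 5000 UMIs. Clusters were made with Seurat 5.3.0 in R 4.3.3 (anchors over 2000 variable genes without the members and related lists, 40 components, resolution 0.26, which gave 6 clusters). Sums and intervals used Python 3.11.15, numpy 2.4.6, scipy 1.17.1 and pandas 2.3.3, and scanpy 1.11.5 gave the doublet scores. The calculations were tested on simulated data.

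The members and lists were chosen with earlier results of these data known. Named singly were the 8 members with most UMIs, the 6 with the highest and the 6 with the lowest smaller ratio of high-sum to low-sum cells, the regulators, the listed genes, and the genes most and least like the summed level. Promoters were read from the RefSeq annotation of Sscrofa11.1, since no promoter table was used here, and 25 of the 27 members matched. Some genes are not reported here. No test between groups was made, since each follicle is 1 library, and replicates cannot be told from follicles.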

Additional observations from a re-analysis of the deposited data

Results flagged for a closer look

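The ratio of cluster 1 to cluster 0 went in opposite directions in the follicles for 15 of the 26 members, each with counting intervals on either side of 1. The difference between the follicles was not tested, since each is 1 library, and it was not kept without integration of the libraries, as given further on. In the mevalonate arm HMGCS1 was at 0.920 in AF75 and 2.36 in AF76, MVK at 0.816 and 1.58, and PMVK at 0.865 and 1.34. In the sterol arm FDFT1 was at 0.903 and 1.85, SQLE at 0.868 and 2.03, LSS at 0.904 and 1.55, TM7SF2 at 0.716 and 1.28, and MSMO1 at 0.825 and 1.88. The late enzymes gave 0.876 and 1.46 for EBP, 0.824 and 1.64 for SC5D, and 0.822 and 1.20 for DHCR7. The regulators gave 0.803 and 2.03 for INSIG1, 0.911 and 1.34 for SREBF2, and 0.883 and 2.04 for STARD4, and SCD gave 0.906 and 1.97. Cumulus markers in cluster 1 summed to 4922 CPM in AF75 and 1356 in AF76.

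Barcodes left out for holding under 2000 genes still held member UMIs. Their summed level was 2359 CPM over 4595 barcodes of AF75 and 1642 CPM over 7397 barcodes of AF76, with a median of 1303 and 1180 UMIs per barcode.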

How the results depend on the processing

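The counts of members past 1.5-fold between high-sum and low-sum cells stayed at 22 and 23 under every alternative except that cells of cluster 0 gave 24 in AF75. The share of all genes past 1.5-fold was not counted under these alternatives. The log2 ratio of the summed level (AF76 to AF75, -0.15) stayed below 0 throughout. It was -0.18 with 500 to 6000 genes, -0.38 in cluster 0 alone, -0.19 over all deposited barcodes, -0.14 without mitochondrial and ribosomal protein genes in the library size, -0.21 as a mean over single cells and -0.17 without MSMO1, the member with most UMIs. The members 1.5-fold apart between the follicles went from 0 to 3 in cluster 0 alone. The excess CV (0.68 and 0.80) was 0.69 and 0.82 without likely doublets, 0.65 and 0.77 in cluster 0 (which was thinned anew), 0.66 and 0.78 without MSMO1, and 0.81 in AF76 at 2000 UMIs per cell. The log2 ratio of cluster 1 to cluster 0 (-0.033 in AF75 and 0.81 in AF76) was -0.00039 and 0.79 without MSMO1 and -0.25 and 0.72 at a resolution of 0.8. Without integration it was -0.48 and, turned in direction, -0.088, where 1245 of 1321 AF76 cells of cluster 1 joined cluster 0.

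Alternatives chosen after seeing the data gave a log2 ratio between the follicles of -0.14 with IDI1 and INSIG2, -0.12 without HSD17B7 and -0.11 without cluster 3. The excess CV was 0.75 and 0.84 without HSD17B7, and 0.76 in AF76 without cluster 3. The log2 ratio of cluster 1 to cluster 0 was -0.063 in AF75 with IDI1 and INSIG2, and -0.14 and 0.83 without HSD17B7. With the members kept among the variable genes, no cluster took the name of cluster 1 in either follicle, so no value was had. For single members, 228 of 234 ratios between follicles and 408 of 416 between high-sum and low-sum cells kept their direction. No paired analysis was possible because each follicle has 1 library. The causes of these shifts were not tested.

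The limits are those of 1 pig and 1 library a follicle. Counting intervals hold no spread between animals, follicles or library preparations. FDPS, ACACA and SREBF1 had few UMIs per cell, which lowers correlations. TM7SF2, with about as many UMIs per cell as ACACA and SREBF1, had an r of 0.11 in AF75 and 0.13 in AF76. The part of low counts in the r of ACACA and SREBF1 was not tested.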
